A study of Mus musculus with 8 samples.

Results

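The clustered histone genes are the genes that encode the H1 linker histone and the H2A, H2B, H3 and H4 core histones from a few dense gene clusters. They were chosen by name, as every row whose symbol began with Hist1h, Hist2h, Hist3h or Hist4h, whatever its biotype. This gave 70 of the 54532 genes listed, and no expression value entered the choice. The annotation classed 67 of them as protein coding and 3 as pseudogenes (Hist1h2aj, Hist1h2al and Hist3h2bb-ps). By class there were 5 H1, 18 H2A, 18 H2B, 12 H3 and 13 H4 genes, and 4 were kept apart: the testis histones Hist1h1t (H1), Hist1h2aa (H2A) and Hist1h2ba (H2B), and the pseudogene Hist1h2al. In the GRCm38 coordinates of the table, 55 Hist1 genes lay at chr13:21715763-23934851, with Hist1h2al alone 27.3 Mb away, the 10 Hist2 genes lay at chr3:96219865-96270132, the 3 Hist3 genes at chr11:58948920-58956830 and Hist4h4 at chr6:136801553-136804415.

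RNA-seq was performed on 8 libraries of C57BL/6J mouse spermatocytes, with 1 library for each combination of stage, genotype and age. The stages were leptotene/zygotene (L/Z) and pachytene (P), the ages postnatal day (PD) 24 and PD 52. MFN2 WT mice carried loxP sites in Mfn2 (Mfn2 loxp/loxp by the labels, with Mfn2 fl/+ littermates also used as controls in the study) and no Cre, and MFN2 cKO mice were Mfn2 loxp/loxp with Stra8-Cre, a Cre active in male germ cells, which removes exon 6 of Mfn2, the gene of a mitochondrial outer-membrane fusion protein. Cells were separated from whole testis by sedimentation through an albumin gradient, which enriches a stage without sorting single cells, and how many mice entered a library is not given in the sources used here.

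Core histones form the nucleosome around which DNA is wound, and H1 binds the DNA between nucleosomes. Most clustered histone genes have no introns and are transcribed in S phase, and their mRNAs end in a stem-loop that the stem-loop binding protein Slbp recognises, in place of a poly(A) tail. Spermatocytes pass their last S phase just before leptotene, so both stages studied here come after it. Hist1h1t, Hist1h2aa and Hist1h2ba are made in male germ cells and take the place of canonical histones there, and a small part of the canonical genes is also known to give polyadenylated mRNA in cells that no longer divide.

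Between 14340665 and 20379950 reads per library fell on genes, recovered as whole reads from FPKM and gene length. Mfn2 was at 62.2 to 97.5 FPKM (sequenced fragments relative to the length of the gene and to the depth of the library) in the 4 MFN2 WT libraries and at 34.3 to 50.1 FPKM in the 4 MFN2 cKO libraries (limma log2 change -1.09, adjusted p = 0.154 at PD 24 and -0.66, adjusted p = 0.654 at PD 52). The 2 genotypes did not overlap. By summed markers the labelled stages were less distinct. The summed level of 9 leptotene and zygotene markers was 168 to 270 FPKM in L/Z and 223 to 294 FPKM in P libraries. That of 9 pachytene markers was 3281 to 5466 FPKM and 3927 to 5721 FPKM, so both sums overlapped. Single markers did separate them, as Piwil1 was at 16.0 to 40.5 FPKM in L/Z and 168 to 278 FPKM in P. By limma the pachytene markers Piwil1 and Tdrd5 were called higher in P, and Pgk2 and Spag6 lower. Of the leptotene and zygotene markers 4 were called higher in P (Hormad1, Meiob, Meioc and Sycp3) and 1 lower (Rec8). In bulk libraries, fewer cells of a type and less RNA per cell cannot be told apart. Whether libraries were selected for poly(A) tails and whether reads were counted by strand are not given in the sources used here.

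The 3′ end of a histone mRNA carries the feature that defines the family, so it is shown first for the genes on which the results turn. The histone stem-loop was searched as a stem of 6 base pairs around a loop of 4 bases, on the sense strand of every annotated transcript (GENCODE M21, GRCm38). The stem had to read GG, C or T, C or T, then CT, with its exact complement after the loop. The loop had to read T, any base but G, T, any base but G. This narrow form was present in 46 of the 70 histone genes and in 52 of all 55450 annotated genes (0.0938%). The lines give it in capitals with 5 flanking bases on either side, 5′ to 3′ as DNA letters.
Hist1h1c: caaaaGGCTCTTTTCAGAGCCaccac
Hist2h2ac: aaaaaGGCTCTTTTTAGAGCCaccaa
Hist3h2a: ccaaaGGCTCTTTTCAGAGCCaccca
Hist1h2bp: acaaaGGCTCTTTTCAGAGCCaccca
Hist1h3a: ccaaaGGCTCTTTTCAGAGCCacaca
Hist1h4h: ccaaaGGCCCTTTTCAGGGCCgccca
Hist1h4a: ccaaaGGCCCTTCTCAGGGCCgccca
Hist1h1t: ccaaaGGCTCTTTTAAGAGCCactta

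The stem-loop of Hist1h1c, Hist3h2a, Hist1h2bp and Hist1h3a was the commonest form, shared by 26 of the 46 genes. Hist1h4h had a form with another stem, found in 7 H4 genes. Hist1h4a, the most abundant H4 gene, and Hist2h2ac, the most abundant H2A gene, each had a form found in no other histone gene. Hist2h2be, Hist1h2bc, Hist1h2ba, Hist1h2aa and Hist1h2al had no match in their annotated transcripts.

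The other 3′ end signal, the polyadenylation hexamer AATAAA, lay in the last 50 bases of a transcript for 15 of the 70 histone genes, against 36.5% of all annotated genes. Of the 9 histone genes above 1 FPKM in every library, 5 held it (Hist1h1c, Hist1h1t, Hist1h2bp, Hist1h4a and Hist2h2be), against 10 of the other 61. The stem-loop was as frequent in both sets, at 6 of 9 and 40 of 61. These counts are a description of annotated ends, and no read was placed on a 3′ end.

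Promoters (RefSeq, GRCm38.p6, from 250 bases before to 50 bases after the start) were matched for 61 of the 70 genes. TATAAA, counted on either strand, was in 35 of them (57.4%) and in 14.2% of all 27025 promoters, and CCAAT, likewise on either strand, was in 52 (85.2%) and in 37.9%. The promoters of Hist1h2bp (chr13:21787238-21787537, plus strand) and Hist1h4a (chr13:23761200-23761499, minus strand), which moved together in the comparisons, are shown with that of Hist2h2ac (chr3:96220831-96221130, minus strand), which moved the opposite way. Capitals mark both motifs on either strand, so that TTTATA and ATTGG are the reverse complements, and no marked motifs overlapped.
Hist1h2bp: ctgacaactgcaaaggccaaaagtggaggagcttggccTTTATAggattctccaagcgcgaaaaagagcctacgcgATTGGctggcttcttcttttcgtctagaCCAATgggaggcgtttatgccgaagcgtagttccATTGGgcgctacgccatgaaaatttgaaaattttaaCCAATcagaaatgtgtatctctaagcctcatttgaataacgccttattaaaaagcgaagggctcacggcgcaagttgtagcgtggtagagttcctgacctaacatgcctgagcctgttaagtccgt
Hist1h4a: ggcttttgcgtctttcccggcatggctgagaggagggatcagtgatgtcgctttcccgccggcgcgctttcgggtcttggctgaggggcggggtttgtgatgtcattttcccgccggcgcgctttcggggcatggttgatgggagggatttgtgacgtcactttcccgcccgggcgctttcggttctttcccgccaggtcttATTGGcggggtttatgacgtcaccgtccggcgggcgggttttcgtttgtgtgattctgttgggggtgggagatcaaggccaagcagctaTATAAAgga
Hist2h2ac: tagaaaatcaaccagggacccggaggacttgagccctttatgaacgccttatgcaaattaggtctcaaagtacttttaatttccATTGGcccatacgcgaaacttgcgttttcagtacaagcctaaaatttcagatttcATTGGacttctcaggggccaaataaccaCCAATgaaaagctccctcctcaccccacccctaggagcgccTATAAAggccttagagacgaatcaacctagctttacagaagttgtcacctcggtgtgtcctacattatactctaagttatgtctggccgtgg

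Each of the 3 promoters held TATAAA once. CCAAT was found 4 times in that of Hist1h2bp, 3 times in that of Hist2h2ac and once in that of Hist1h4a. The TATAAA of Hist1h4a lay at the downstream end of its window and that of Hist1h2bp at the far upstream end, on the other strand.

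Many histone genes start head to head, and 15 such pairs had start sites within 1000 bases of each other. The Hist2h2ac window covers the 238 bases that separate it from Hist2h2be, and the 2 genes had 198 and 4686 reads over the 8 libraries. Some other pairs also had most reads on 1 partner. Hist1h2bp had 2832 reads and Hist1h2an, 242 bases away, had 6. Hist1h2bc had 930 reads and Hist1h2ac, 250 bases away, had 47. Reads were spread over both partners in others, as in Hist3h2bb-ps with 269 and Hist3h2a with 585. Of the stretches of 50 bases in Hist1h2an 85.8% also occur in other genes, so its count depends on how such reads were assigned.

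The genes were sparsely expressed as a whole. The 66 genes of the 5 classes, without the 4 kept apart, took 0.00873% to 0.0146% of the reads of a library. Over all 8 libraries 6 of the 70 genes had 0 reads (Hist1h2aj, Hist2h2aa1, Hist2h2aa2, Hist2h2bb, Hist2h3b and Hist2h3c1), 13 had 1 to 10 reads and 17 had over 100. Of the 70, 27 reached 1 FPKM in at least 1 library and entered the test, and 43 did not. The test therefore saw only genes that are high somewhere.

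Near-identical copies bear on these levels, since a read that matches several genes cannot be assigned to 1 of them, and how the authors treated such reads is not given in the sources used here. Of the windows of 50 bases along each gene's transcript, the median histone gene shared 54.5% with another gene. The median was 2.25% for H1, 82.3% for H2A, 46.9% for H2B, 62.0% for H3 and 39.5% for H4. The 6 genes without reads shared 93.1% to 100% of their windows, and the 9 genes above 1 FPKM in every library shared at most 49.5%. A level of 0 in a gene of the first kind is therefore a statement about assigned reads, not about its RNA.

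By class, H2B had the highest summed level in each of the 8 libraries and H4 or H1 the next, while the order of the rest changed between libraries. H2B stood at 48.1, 49.1, 55.8 and 41.0 FPKM at PD 24 and at 61.0, 73.6, 87.4 and 52.0 FPKM at PD 52, in the order L/Z MFN2 WT, L/Z MFN2 cKO, P MFN2 WT and P MFN2 cKO, which is kept for every gene and class. H4 stood at 29.6, 22.2, 18.3 and 12.2 FPKM at PD 24 and at 38.1, 69.5, 42.4 and 25.4 FPKM at PD 52. Both classes were highest in a PD 52 library and lowest in the P MFN2 cKO library of PD 24, but the ages overlapped.

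The linker histone H1 stood at 9.18, 24.0, 11.5 and 16.5 FPKM at PD 24 and at 5.46, 10.8, 16.1 and 17.3 FPKM at PD 52. In each of the 4 pairs of stage and age this sum was higher in MFN2 cKO than in MFN2 WT, by 2.62-fold and 1.97-fold in L/Z and by 1.44-fold and 1.08-fold in P (PD 24, then PD 52). The rise was that of Hist1h1c. Hist1h1a, the other H1 gene above 1 FPKM in any library, was lower in MFN2 cKO in each pair, on 12 to 45 reads per library. It stood at 2.50, 2.05, 1.34 and 0.871 FPKM at PD 24 and at 3.79, 2.68, 3.79 and 1.21 FPKM at PD 52. H2A stood at 6.18, 6.95, 12.4 and 10.6 FPKM at PD 24 and at 6.12, 5.62, 8.52 and 4.56 FPKM at PD 52, and H3 at 8.29, 7.84, 5.82 and 3.29 FPKM and at 10.1, 14.5, 8.90 and 7.62 FPKM. H2A was highest in the P libraries of PD 24 and H3 in the L/Z libraries of PD 52.

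**Figure D1:**
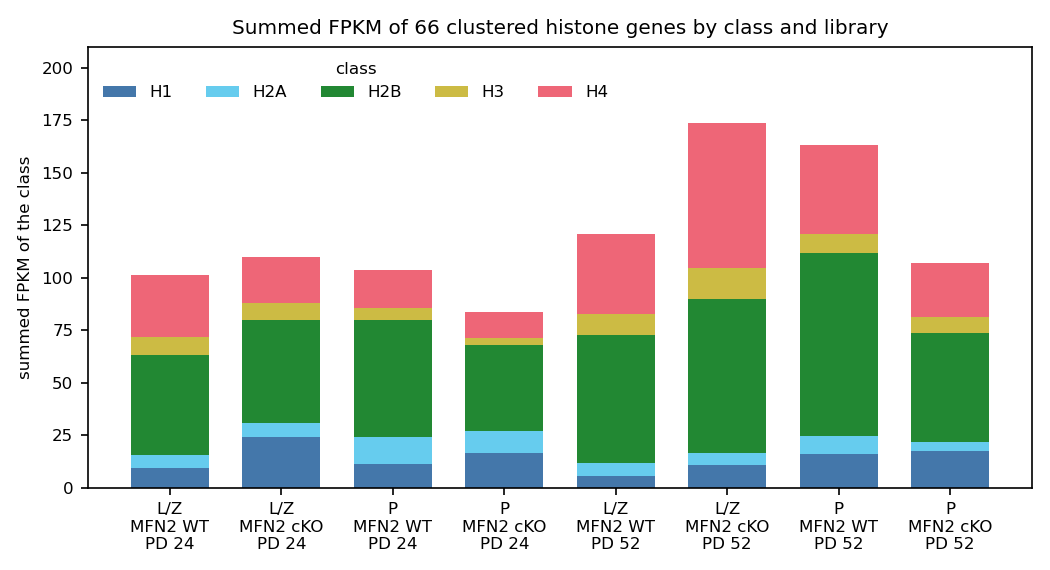
Summed FPKM of the 66 canonical clustered histone genes in each of the 8 libraries, 1 bar per library on a linear axis from 0, stacked by class from H1 at the bottom to H4 at the top. H2B is the tallest segment in every bar, and the tallest bars are the L/Z MFN2 cKO and P MFN2 WT libraries of PD 52, at 174 and 163 FPKM.

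Between stages the classes did not move as a block. The mean of the 4 P libraries over the mean of the 4 L/Z libraries was 1.24 for H1 (95% interval 1.15 to 1.35) and 1.45 for H2A (1.24 to 1.70). It was 1.02 for H2B (0.970 to 1.07), 0.630 for H3 (0.537 to 0.740) and 0.617 for H4 (0.567 to 0.672). These intervals were approximated on the log scale from the read counts. The intervals cover counting error only, and in each class the libraries of both stages overlapped. The H2B ratio depends on the unit, since it was 1.42 in reads scaled to depth only, where long transcripts such as that of Hist2h2be weigh more.

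A single gene carried most of 4 of the 5 classes. Hist1h1c held 80.2% of H1 by mean FPKM, Hist1h4a 72.0% of H4, Hist1h3a 70.0% of H3 and Hist1h2bp 53.4% of H2B, while Hist2h2ac held 34.8% of H2A. In order of mean FPKM the canonical genes ran from Hist1h2bp at 31.2 and Hist1h4a at 23.2 to Hist2h2be at 12.8, Hist1h1c at 11.1, Hist1h3a at 5.80 and Hist1h2bc at 5.77. Every pair of neighbours in this order overlapped over the 8 libraries.

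**Figure D2:**
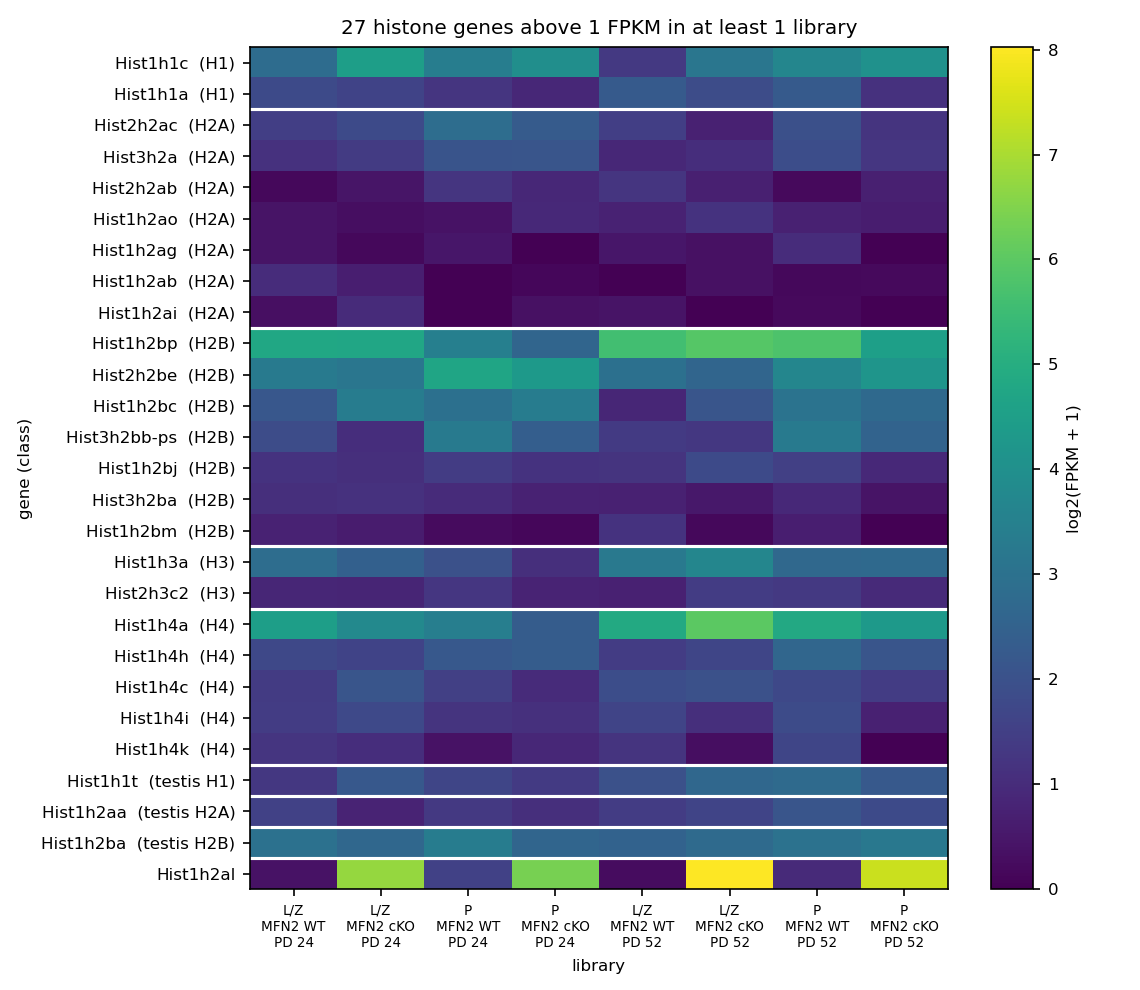
Level of the 27 histone genes above 1 FPKM in at least 1 library, as log2(FPKM + 1) on a colour scale, with 1 column per library and 1 row per gene, white lines separating classes. Hist1h2bp and Hist1h4a are the brightest canonical rows, and the bottom row, Hist1h2al, is bright in the 4 MFN2 cKO columns and dark in the 4 MFN2 WT columns.

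The first comparison asked which histone mRNAs differed between L/Z and P spermatocytes. The Hist2 and Hist3 genes Hist2h2be, Hist2h2ac, Hist3h2bb-ps and Hist3h2a, with Hist1h4h, were higher in P, and the Hist1 genes Hist1h2bp, Hist1h4a and Hist1h3a were lower in P. A class was no unit here, since H2B and H4 each had genes on both sides.

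Hist2h2be, an H2B gene with a long transcript of which 0% of windows was shared, stood at 8.91, 7.88, 25.4 and 18.9 FPKM at PD 24 and at 6.83, 5.09, 11.9 and 17.1 FPKM at PD 52. All 4 P libraries were above all 4 L/Z libraries. The fitted change of log2(FPKM + 1) was 1.22 with a standard error (SE) of 0.19, and the limma adjusted p was 0.00659. Hist3h2bb-ps, an H2B pseudogene, stood at 2.62, 1.09, 8.74 and 4.28 FPKM at PD 24 and at 1.58, 1.47, 8.58 and 4.89 FPKM at PD 52. Its P libraries were also all above its L/Z libraries, by 1.48 on the log2 scale (SE 0.17, limma adjusted p = 0.00524).

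Hist1h4h, an H4 gene, was at 2.37, 2.04, 3.59 and 4.0 FPKM at PD 24 and at 1.71, 2.18, 5.30 and 3.37 FPKM at PD 52, again without overlap between stages (log2 change 0.71, SE 0.18, limma adjusted p = 0.0290). The H2A genes Hist2h2ac and Hist3h2a overlapped between stages. Hist2h2ac stood at 1.83, 2.49, 6.29 and 3.93 FPKM at PD 24 and at 1.80, 0.658, 2.88 and 1.32 FPKM at PD 52, with P above L/Z in each of the 4 pairs of age and genotype (log2 change 0.70, SE 0.20, limma adjusted p = 0.0390). Hist3h2a stood at 1.23, 1.63, 3.28 and 3.31 FPKM and at 0.872, 1.05, 2.73 and 1.41 FPKM (log2 change 0.72, SE 0.18, limma adjusted p = 0.0262). Hist3h2a lies wholly within Trim17 on the same strand, which had a mean of 33.5 FPKM and was lower in P in each pair, and 31.5% of the windows of 50 bases of Hist3h2a also occur in other genes, so reads of those stretches could not be told apart.

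On the lower side, Hist1h2bp, an H2B gene and the most abundant canonical gene, stood at 26.5, 25.6, 10.04 and 5.18 FPKM at PD 24 and at 47.0, 59.5, 53.6 and 22.2 FPKM at PD 52. P was below L/Z in 3 of the 4 pairs and above it in MFN2 WT at PD 52 (log2 change -1.16, SE 0.34, limma adjusted p = 0.0448). Hist1h4a, an H4 gene, stood at 21.4, 12.7, 9.84 and 4.09 FPKM at PD 24 and at 28.4, 62.4, 27.6 and 19.2 FPKM at PD 52, with P lower in all 4 pairs but close to L/Z in MFN2 WT at PD 52 (log2 change -1.04, SE 0.27, limma adjusted p = 0.0303). Hist1h3a, an H3 gene, stood at 6.24, 4.54, 2.97 and 1.11 FPKM and at 8.51, 11.8, 5.60 and 5.68 FPKM, lower in P in all 4 pairs (log2 change -0.93, SE 0.18, limma adjusted p = 0.0124). The stages overlapped in all 3 genes.

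Thus 5 of the 27 tested histone genes rose in P, where 12% of all 21175 genes tested did, and 3 fell, where 15.9% did. The median change of the 27 was 0.0048 and that of all genes -0.04 on the log2 scale. Without overlap between stages, 3 histone genes were higher in P (10% of all genes) and 0 were lower (5.63%). Hist1h2bc (log2 change 0.91, SE 0.33, limma adjusted p = 0.0783), Hist1h1c (0.82, SE 0.41, adjusted p = 0.172) and Hist1h1a (-0.51, SE 0.18, adjusted p = 0.0734) did not pass.

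The fit has 3 residual degrees of freedom, so its p-values measure what the L/Z and P libraries of an age and genotype do not share. None of the 8 calls held without the L/Z MFN2 WT or P MFN2 WT library of PD 24 or without the L/Z MFN2 cKO or P MFN2 cKO library of PD 52, and 3 of the 8 held (Hist1h3a, Hist2h2be and Hist3h2bb-ps) without either MFN2 cKO library of PD 24. The same 3 held without the filter on low FPKM, and with a pseudocount of 0.1 the calls of Hist1h2bp and Hist1h4a ended. With voom the calls of Hist1h4h and Hist2h2ac ended. Markers of other cells moved with the stages. All 8 Sertoli cell markers were called higher in P (summed level 16.5 to 174 FPKM in L/Z and 229 to 532 FPKM in P). So were Hist2h2be, Hist2h2ac, Hist3h2bb-ps, Hist3h2a and Hist1h4h. Of 10 spermatid markers 9 were called lower in P (375 to 19545 FPKM in L/Z and 105 to 4693 FPKM in P), as were Hist1h2bp, Hist1h4a and Hist1h3a. Also called lower in P were 7 of 8 macrophage markers and 4 of 5 tested peritubular myoid markers. No marker of these lists was at 0 throughout, and their part in the result was not tested.

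The second comparison, between ages, set the same 3 Hist1 genes apart. Hist1h2bp rose from PD 24 to PD 52 by 1.55 on the log2 scale (SE 0.34, limma adjusted p = 0.0208), Hist1h4a by 1.5 (SE 0.27, adjusted p = 0.0103) and Hist1h3a by 1.00 (SE 0.18, adjusted p = 0.0105). In each of the 4 pairs of stage and genotype all 3 were higher at PD 52. The most abundant canonical H2A gene, Hist2h2ac, fell by 0.77 (SE 0.20, adjusted p = 0.0336) and was lower at PD 52 in each of the 4 pairs, by the least in L/Z MFN2 WT.

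Among the 27 tested genes 3 rose with age, where 15.2% of all genes did, and 1 fell, where 8.42% did. Without overlap between the ages there were 0 histone genes higher at PD 52 (6.96% of all genes) and 0 lower (6.45%). Hist1h1t (log2 change 0.78, SE 0.28, limma adjusted p = 0.0818), Hist1h2aa (0.57, SE 0.18, adjusted p = 0.0626) and Hist2h2be (-0.51, SE 0.19, adjusted p = 0.0829) did not pass. No age call held without the L/Z MFN2 WT or P MFN2 WT library of PD 24 or the L/Z MFN2 cKO library of PD 52, and 1 held without the P MFN2 cKO library of PD 24 (Hist1h3a) or of PD 52 (Hist1h4a). Without the filter on low FPKM the age call of Hist1h3a held and the other 3 ended, and with a pseudocount of 0.1 that of Hist1h2bp ended. Hist2h2ac was not called for age on leaving out any 1 of the 8 libraries, or with stage and genotype pairs as a block.

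Spermatid markers rose with the 3 genes, with all 10 called higher at PD 52 and a summed level of 105 to 2429 FPKM at PD 24 and 2130 to 19545 FPKM at PD 52. RNAs that carry no poly(A) tail moved the same way in sum, from 5064 to 7035 FPKM at PD 24 to 16860 to 123915 FPKM at PD 52. Nearly all of it came from Gm23935, which the annotation classes as a miRNA gene. Of the 9 tested, 5 were higher and 4 lower at PD 52 by the fitted change, with Gm23935 and Rn7sk called higher and Scarna13 lower. All 8 Sertoli cell markers were lower at PD 52 by the fitted change (median -1.25, with 4 called and a summed level of 141 to 532 FPKM at PD 24 and 16.5 to 439 FPKM at PD 52), as were all 5 tested peritubular myoid markers, with 3 called, and 4 of 8 spermatogonia markers were called lower, as Hist2h2ac was. The part of any of these in the result was not tested.

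**Figure D3:**
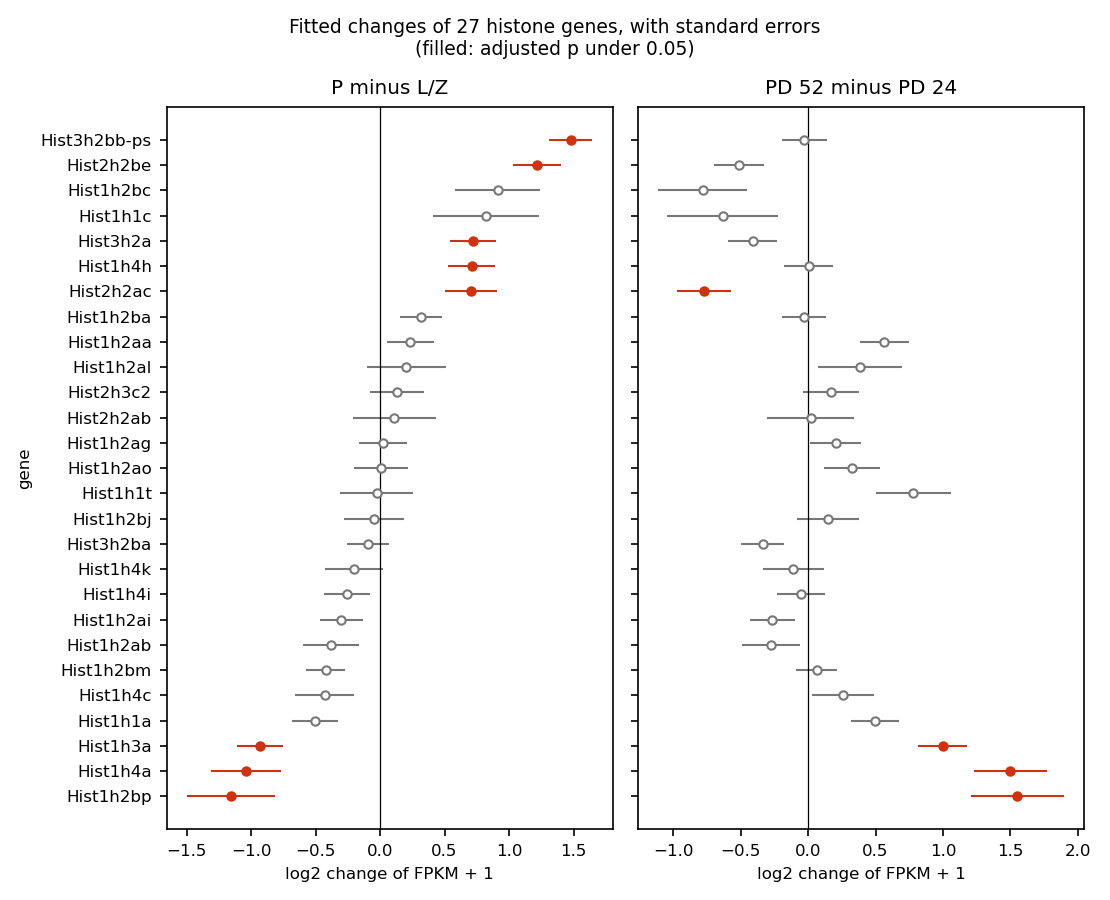
Fitted change of log2(FPKM + 1) for the 27 tested histone genes, between stages in the left panel and between ages in the right panel, with bars of 1 SE. Filled red points have an adjusted p under 0.05. Hist1h3a, Hist1h4a and Hist1h2bp stand at the bottom, lower in P and higher at PD 52.

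The deletion of Mfn2 was the main question of the study. Among the histone genes it came with a single large difference, in the pseudogene Hist1h2al, an H2A copy of 339 bases at chr13:51202727-51203065 on the minus strand. It was almost without reads in MFN2 WT and had the highest FPKM of the 70 clustered histone genes in all 4 MFN2 cKO libraries.

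Hist1h2al stood at 0.312, 107, 1.90 and 82.5 FPKM at PD 24 and at 0.197, 259, 0.919 and 167 FPKM at PD 52, which is 2, 645, 13 and 520 reads and 1, 1285, 5 and 820 reads. Both stages of both ages were high in MFN2 cKO and low in MFN2 WT, and the lowest MFN2 cKO library was 43.4 times the highest MFN2 WT library. The fitted change was 5.61 at PD 24 (SE 0.44, limma adjusted p = 0.0332) and 7.11 at PD 52 (SE 0.44, adjusted p = 0.00782). The change at PD 52 minus that at PD 24 was 1.5 (SE 0.62, adjusted p = 0.545). In these contrasts the L/Z and P libraries of a genotype and age stand in for replicates, and the spread between mice was not measured.

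In single pairs of libraries the ratio of MFN2 cKO to MFN2 WT was 344 (95% exact binomial interval 94.7 to 2843) in L/Z and 43.4 (25.1 to 82.0) in P at PD 24, and 1316 (236 to 52009) in L/Z and 181 (77.4 to 560) in P at PD 52. The large ratios of L/Z rest on 2 and 1 reads in MFN2 WT. The call of the fit ended with a pseudocount of 0.1, without a filter on low FPKM, with the 4 libraries of an age alone or without any 1 library. The direction held in all of these, with the log2 change between 4.98 and 6.70 at PD 24 and between 6.55 and 8.56 at PD 52.

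**Figure D4:**
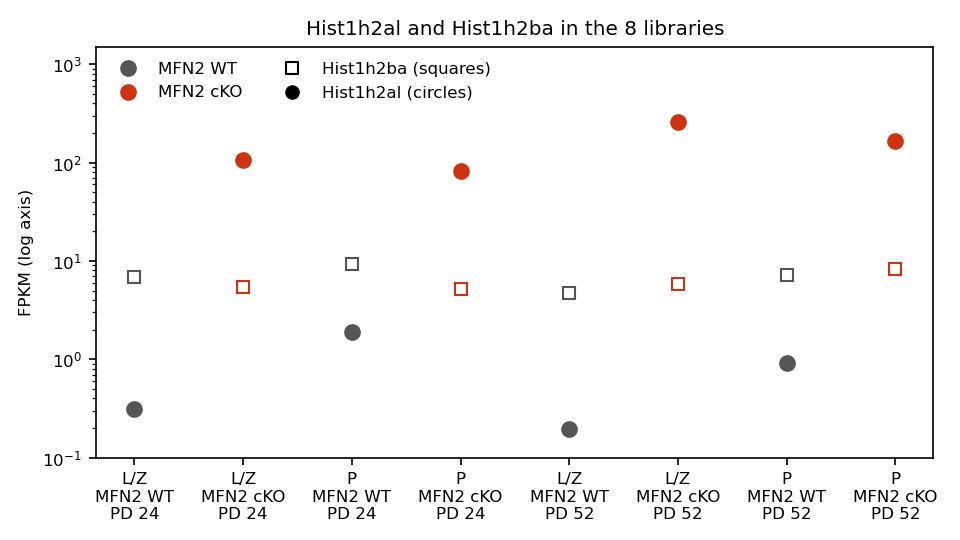
FPKM of Hist1h2al (filled circles) and of the testis histone gene Hist1h2ba (open squares) in the 8 libraries, on a log axis, with MFN2 WT in grey and MFN2 cKO in red. Hist1h2al is under 2 FPKM in the 4 MFN2 WT libraries and over 80 FPKM in the 4 MFN2 cKO libraries, while Hist1h2ba lies between 4.70 and 9.29 FPKM in all 8.

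The sequence of Hist1h2al bears on what was counted. Its 339 bases matched Hist2h2aa1, Hist2h2aa2 and Gm20634 with 2 mismatches (99.4% identity) and Hist2h2ac with 6 (98.2%), and 67.6% of its windows of 50 bases occurred in another annotated gene. Windows found in no other gene joined into 2 stretches, of 93 bases at chr13:51202903-51202995 and of 99 bases at chr13:51202801-51202899, shown here on the gene's own strand.
Hist1h2al, first unshared stretch: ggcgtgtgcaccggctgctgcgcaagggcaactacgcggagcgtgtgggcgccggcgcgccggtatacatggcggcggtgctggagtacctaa
Hist1h2al, second unshared stretch: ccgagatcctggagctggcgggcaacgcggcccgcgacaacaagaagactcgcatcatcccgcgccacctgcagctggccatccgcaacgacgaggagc

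Hist2h2aa1 and Hist2h2aa2 had 0 reads assigned in every library, but all of their windows are shared, so reads of their own could not be told apart. Gm20634 was at most at 0.0168 FPKM, and Hist2h2ac overlapped between genotypes, at 1.80 to 6.29 FPKM in MFN2 WT and 0.658 to 3.93 FPKM in MFN2 cKO. Gm20632 and Gm20633, which run antisense to this sequence, were at 0.916 to 2.70 FPKM over the 8 libraries. Gm15444, which is 96.2% identical on the opposite strand over 238 aligned bases, had all MFN2 cKO libraries above all MFN2 WT libraries, at 5.27 to 10.9 and 2.73 to 4.85 FPKM. The deposited table gives 1 value per gene, so whether the reads of Hist1h2al fell on its unshared stretches cannot be seen from it.

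Of 22 genes above 1 FPKM within 1 Mb of Hist1h2al, S1pr3 and Gadd45g had all MFN2 cKO libraries above all MFN2 WT libraries, and the larger of their ratios of lowest MFN2 cKO to highest MFN2 WT library was 1.35. Spin1, a gene 50.2 kb away, overlapped between genotypes at 4.11 to 10.4 FPKM in MFN2 WT and 3.47 to 12.6 FPKM in MFN2 cKO. Markers of macrophages (10.3 to 39.5 FPKM in MFN2 WT and 24.1 to 165 FPKM in MFN2 cKO, summed over 8 genes) and of Leydig cells (19.7 to 255 FPKM and 99.0 to 641 FPKM, over 7 genes) were higher in MFN2 cKO in each of the 4 pairs, with overlap across pairs. By limma 0 genes of either list were called for genotype at either age. At an unadjusted p under 0.05, 4 macrophage genes were higher at PD 24 and 7 at PD 52, and 5 and 4 Leydig genes, while voom called 2 and 2 macrophage genes and 1 and 0 Leydig genes. No gene of either list was at 0 throughout, and their part in the result was not tested.

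Hist1h2al was the only histone gene called for genotype. It was 1 of 27 tested at PD 24, where 0.0519% of all genes were called higher, and 1 of 27 at PD 52, where 0.0142% were. With limma 0 histone genes were called lower at PD 24 (0.486% of all genes) or at PD 52 (0.00472%), with 2 at an unadjusted p under 0.05 at PD 24 (Hist1h3a and Hist3h2bb-ps) and 5 at PD 52 (Hist1h1a, Hist1h2bm, Hist1h4i, Hist1h4k and Hist2h2ac), and 0 with voom. The genotype effect differed between ages in 0 histone genes in either direction (0.00472% of all genes higher and 0.0% lower), with 2 higher and 4 lower at an unadjusted p under 0.05 and 0 with voom. Without overlap between genotypes, 1 histone gene was higher in MFN2 cKO (0.656% of all genes) and 1 lower (0.255%), Hist1h2ag, which had at most 8 reads in a library.

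Pairs of single libraries, which allow no test, showed where other histone genes differed between genotypes by at least 2-fold on the log2(FPKM + 1) scale. In L/Z the linker histone gene Hist1h1c and the H2B gene Hist1h2bc were higher in MFN2 cKO at both ages, and in P at PD 52 genes of H1, H2B and H4 were lower.

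Hist1h1c stood at 6.21, 21.6, 9.53 and 14.8 FPKM at PD 24 and at 1.5, 7.89, 11.8 and 15.5 FPKM at PD 52. It was higher in MFN2 cKO in all 4 pairs. The ratio was 3.48 (95% exact binomial interval 2.94 to 4.13) and 5.27 (3.65 to 7.80) in L/Z and 1.55 (1.34 to 1.80) and 1.32 (1.13 to 1.54) in P at PD 24 and PD 52. In the fit, which takes L/Z and P together, its change was 1.12 at PD 24 (SE 0.58, limma adjusted p = 0.653) and 1.10 at PD 52 (SE 0.58, adjusted p = 0.738), so it did not pass. The summed macrophage markers were also higher in MFN2 cKO in all 4 pairs. They went from 39.5 to 121 and from 21.7 to 165 FPKM in L/Z at PD 24 and PD 52. In P they went from 21.5 to 46.9 and from 10.3 to 24.1 FPKM. The summed Leydig cell markers were higher in all 4 pairs too, and the part of either in the result was not tested.

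Hist1h2bc stood at 3.53, 9.27, 6.82 and 9.44 FPKM at PD 24 and at 0.809, 3.31, 7.28 and 5.72 FPKM at PD 52. In L/Z it was higher in MFN2 cKO by 2.63 (2.01 to 3.47) at PD 24 and by 4.10 (2.25 to 7.97) at PD 52, while in P it was higher at PD 24 and lower at PD 52. Hist1h4a was 2.20 times higher (1.88 to 2.58) in L/Z at PD 52 and lower in P at PD 24, at 0.416 of MFN2 WT (0.283 to 0.601). The direction of Hist1h4a thus differed between pairs. The summed level of the 10 spermatid markers moved the same way as Hist1h4a in each pair, from 2429 to 375 FPKM in L/Z and from 1220 to 105 FPKM in P at PD 24, and from 10541 to 19545 FPKM in L/Z and from 4693 to 2130 FPKM in P at PD 52. Their part in the result was not tested.

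In L/Z at PD 24, 3 histone genes were at least 2-fold higher in MFN2 cKO (Hist1h1c, Hist1h2bc and Hist1h2al), where 3.45% of all genes were, and 0 were lower (7.03%), the largest fall being that of Hist3h2bb-ps, at -0.79 on the log2 scale. In L/Z at PD 52, 4 were higher (these 3 and Hist1h4a, 4.83% of all genes) and 1 was lower (3.12%), Hist1h2bm, from 10 reads to 1. In P at PD 24, 1 was higher (Hist1h2al, 1.79%) and 1 was lower (Hist1h4a, 6.29%). In P at PD 52, 1 was higher (Hist1h2al, 5.21%) and 5 were lower (5.78%).

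The 5 lower in P at PD 52 were led in level by Hist1h2bp, at 0.415 of MFN2 WT (95% exact binomial interval 0.355 to 0.484). Hist1h1a, a linker histone gene, was at 0.319 (0.158 to 0.602) and Hist1h4i at 0.258 (0.0956 to 0.599) of MFN2 WT. Hist1h4k went from 11 reads to 0 and Hist1h2ag from 8 reads to 0. Hist1h2ag passed the filter on low FPKM only through that P MFN2 WT library of PD 52, as Hist1h2bm did only through the L/Z MFN2 WT library of PD 52, so each had to be lower in the MFN2 cKO library beside it.

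**Figure D5:**
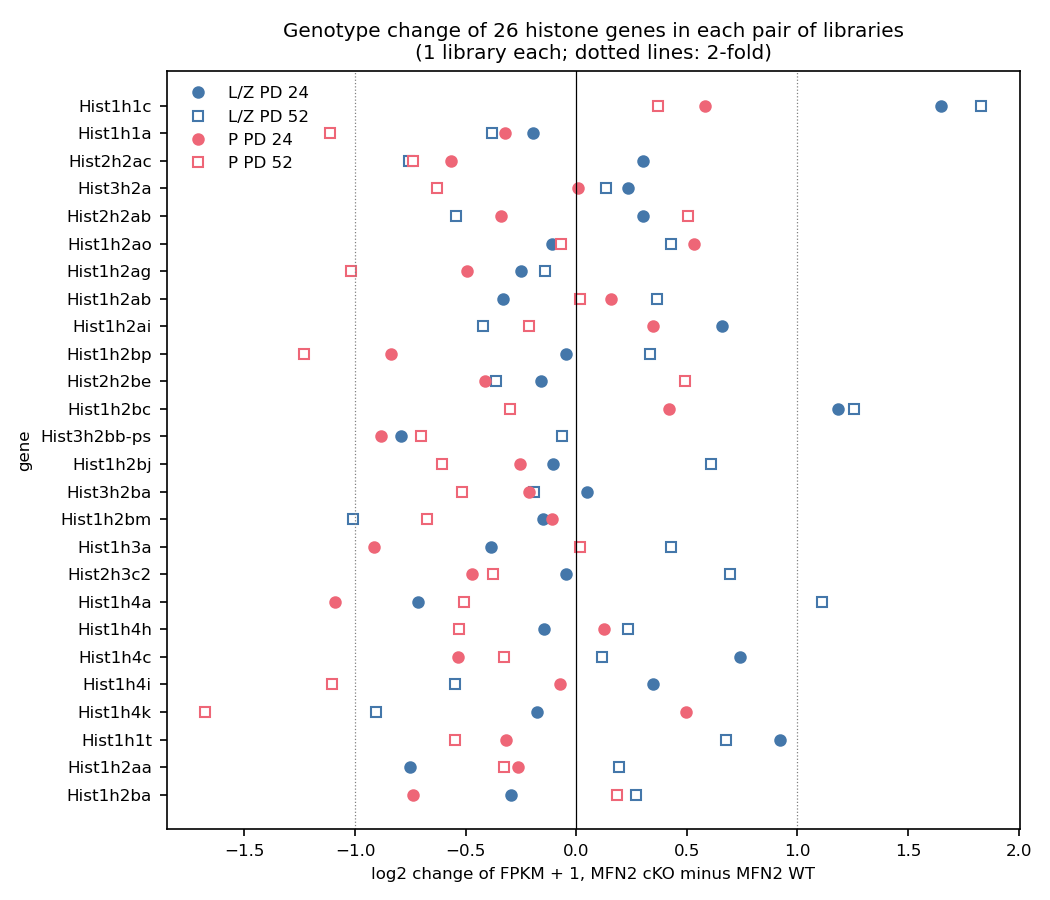
Change of log2(FPKM + 1) from MFN2 WT to MFN2 cKO in each of the 4 pairs of libraries for the 26 tested histone genes other than Hist1h2al, with L/Z in blue, P in red, PD 24 as filled circles and PD 52 as open squares, and dotted lines at 2-fold. Each point compares 1 library with 1 library. Hist1h1c lies to the right of 0 in all 4 pairs, beyond 2-fold in L/Z.

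The testis histone genes were present throughout and did not pass the limma test in any contrast, although Hist1h1t was called for age with the block of matched pairs, and Hist1h2aa for age with a filter on a mean FPKM above 1 and with protein-coding genes only. Hist1h2ba, the H2B form of male germ cells, stood at 6.89, 5.43, 9.29 and 5.18 FPKM at PD 24 and at 4.70, 5.88, 7.14 and 8.25 FPKM at PD 52, and libraries of all groups overlapped (stage log2 change 0.32, SE 0.16, limma adjusted p = 0.180). Hist1h1t, the linker histone of mid-pachytene and later cells, stood at 1.45, 3.65, 2.23 and 1.59 FPKM and at 3.0, 5.40, 5.88 and 3.70 FPKM. It did not separate the labelled stages (log2 change -0.03, SE 0.28, adjusted p = 0.950).

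Hist1h2aa, the H2A partner of Hist1h2ba, stood at 1.90, 0.723, 1.53 and 1.10 FPKM at PD 24 and at 1.71, 2.10, 3.36 and 2.47 FPKM at PD 52 (stage log2 change 0.23, SE 0.18, limma adjusted p = 0.364). These levels rest on 5 to 21 reads per library. Its start site lies 305 bases from that of Hist1h2ba, which had 346 reads over the 8 libraries to its 96.

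The lower genes of each class stayed near the limit of the depth. Hist1h1a was at 0.871 to 3.79 FPKM and Hist1h1b at 0 to 0.651 FPKM. Hist1h4c was at 0.983 to 3.37 FPKM, Hist2h3c2 at 0.655 to 1.68 FPKM and Hist2h2ab at 0.119 to 1.35 FPKM, and genotypes, ages and stages overlapped in each.

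Genes that act with the clustered histones were taken from lists of known function. Of the replacement histones, which are expressed outside S phase and sit apart from the clusters, 18 were tested, with 3 called higher in P (12% of all genes) and 4 lower (15.9%), and 4 called higher at PD 52 (15.2%, with 8.42% lower). H2afx, the variant phosphorylated at DNA breaks, and H2afz rose in P by 0.93 (SE 0.18, limma adjusted p = 0.0122) and 0.74 (SE 0.21, adjusted p = 0.0372), as Hist2h2be did. The spermatid histones H1fnt and H2al2a fell in P by 1.60 and 1.44 and rose with age by 3.0 and 3.17, in the same directions as Hist1h2bp, Hist1h4a and Hist1h3a. Both also fell in MFN2 cKO at PD 24, by 3.65 (SE 0.36, adjusted p = 0.0359) and 3.76 (SE 0.48, adjusted p = 0.0364). All 10 spermatid markers were lower in MFN2 cKO at PD 24 by the fitted change (median -2.44), with 4 called (Prm1, Prm2, Tnp1 and Tnp2), and their part in the result was not tested.

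Of 21 tested genes that process, export or degrade histone mRNA, 5 were called higher in P (Cstf2t, Mif4gd, Slbp, Srrt and Upf1), beside 12% of all genes, and 1 lower (Cstf2), beside 15.9%. Slbp, which binds the stem-loop, stood at 11.9, 17.5, 21.6 and 21.1 FPKM at PD 24 and at 13.5, 10.9, 20.3 and 18.1 FPKM at PD 52, and all P libraries were above all L/Z libraries (log2 change 0.58, SE 0.16, limma adjusted p = 0.0359). Upf1, a helicase of RNA decay that also acts on histone mRNA, rose by 1.53 (SE 0.21, adjusted p = 0.00557). For genotype 0 of the 21 were called at either age by limma, 0 at an unadjusted p under 0.05 and 0 with voom.

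Of 25 tested histone chaperones, which carry histones to DNA, 3 were called higher in P (Nap1l1, Nap1l4 and Rbbp4), beside 12% of all genes, and 1 lower (Rbbp7), beside 15.9%. At PD 52, 2 of them were called lower (Anp32e and Atrx, by 0.92 and 0.65), beside 8.42% of all genes. Of 35 S phase genes, 2 were called higher in P (Ccne2 and Cdk2), beside 12% of all genes, and 3 lower (Cdt1, E2f1 and Fen1), beside 15.9%. At PD 52, 10 were called lower, beside 8.42% of all genes, among them Mcm3 and Mcm4 of the replicative helicase, each lower by 0.98. The median age change of the 35 was -0.47, beside 0.0048 for all genes, while Hist1h2bp, Hist1h4a and Hist1h3a rose. At PD 52 all 35 were lower in MFN2 cKO by the fitted change (median -0.42), with 0 called by limma, 11 at an unadjusted p under 0.05 and 0 with voom. Of 8 markers of spermatogonia, the dividing cells that precede meiosis, 4 were called lower at PD 52 (Dmrt1, Sall4, Sohlh1 and Uchl1, median of the 8 -0.69), and 6 of 8 were lower in MFN2 cKO at PD 52 by the fitted change (median -0.58), with 0 called by limma, 4 at an unadjusted p under 0.05 and 0 with voom. Their part in the result was not tested.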

How the data were processed

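Reads were sequenced in pairs of 150 bases on a HiSeq. The deposited table holds FPKM per gene, which the authors computed on a commercial platform. Their processing notes name CASAVA 1.4, Bowtie 0.12.2 and the builds mm8 and mm9, but all 70 histone genes have GENCODE M21 (GRCm38) coordinates. Here reads were recovered from FPKM and gene length (whole within 0.01). Genes above 1 FPKM in at least 1 library were tested with limma 3.58.1 in R 4.3.3 on log2(FPKM + 1), with stage, age, genotype and age by genotype as terms over all 8 libraries. The Benjamini-Hochberg threshold was 0.05 over 21175 genes. The fit was tested on simulated data. Fold changes on this scale understate those of low genes. The study compared 2 libraries at a time, without replicates, which was not repeated. Every group is 1 library, so same-numbered replicates pair nothing. Named were the 4 genes kept apart, the 3 highest of each class, called genes, the largest change of a pair and the 3 largest of a list. Genes named in counts of 5 or fewer were named after their values were seen. The genes and lists were chosen with earlier results of these data known.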

Additional observations from a re-analysis of the deposited data

Results flagged for a closer look

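Hist1h1t, Hist1h4c and the summed H2B class had genotype changes of 1 sign in both L/Z pairs and of the other sign in both P pairs, though H2B hardly moved in L/Z at PD 24. On the log2 scale the MFN2 cKO minus MFN2 WT change of log2(FPKM + 1) of Hist1h1t was 0.92 at PD 24 and 0.68 at PD 52 in L/Z, and -0.32 and -0.55 in P, so the mean in L/Z exceeded that in P by 1.23. For Hist1h4c the changes were 0.74 and 0.12 in L/Z and -0.54 and -0.32 in P, a gap of 0.859. For the H2B class the log2 ratios of summed FPKM, with nothing added, were 0.03 and 0.27 in L/Z and -0.44 and -0.75 in P, a gap of 0.748. Each change compares 1 library with 1 library, and the difference between stages was not tested. For Hist1h1t and Hist1h4c the counting interval of at least 1 of the 4 pairs includes no change.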

How the results depend on the processing

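Under alternatives other than leaving out a library, 60 summary values stayed within 1.5 times the reported count or within counting error and 19 did not. Without a filter on low FPKM 4 histone genes were called between stages in place of 8, and 2 between ages in place of 4. For genotype the single call at PD 24 and that at PD 52 became 0 with a pseudocount of 0.1, without the filter, with the 4 libraries of an age alone, and among protein-coding genes, where the pseudogene is left out by construction. With a pseudocount of 0.1 the pairs gave 6 higher and 2 lower in L/Z at PD 24, 4 lower in L/Z at PD 52 and 3 lower in P at PD 24. The ratio of P to L/Z of H2A was 2.0 over the 3 of 18 genes with under 50% of windows shared and 1.74 in reads scaled to depth only. Of those 3 genes only Hist3h2a, which lies within Trim17, reached 1 FPKM in any library. That of H2B was 0.951 with further median-of-ratios scaling and 1.42 in reads scaled to depth only. That of H3 was 0.50 over the 4 of 12 genes with under 50% of windows shared.

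Leaving out 1 library, which lowers the residual degrees of freedom to 2, gave 0 to 6 calls between stages, 0 to 4 between ages, and 0 to 0 for genotype at PD 24, at PD 52 and for their difference. No alternative changed the sign of a called change of a histone gene. Apart from the pseudocount, the filter and fewer samples, the causes were not tested. With a block of matched pairs the counts of stage and age calls were 8 and 4 as before, with Hist1h1t in place of Hist2h2ac for age. A single read of Hist1h2al was worth 0.197 FPKM in the L/Z MFN2 WT library of PD 52, so small differences among such short genes under 1 FPKM were not detectable at this depth.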

Other observations

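Genes listed under 2 FPKM in every MFN2 WT library whose lowest MFN2 cKO level exceeded 5 times the highest MFN2 WT level plus 0.2 FPKM were looked for after the pattern of Hist1h2al had been seen. There were 4 over all genes and 0 in the reverse direction. Beside Hist1h2al these were Gm11702, a processed pseudogene with 0 or 1 read in the MFN2 WT libraries and 16 to 43 reads in the MFN2 cKO libraries, Defa29, an alpha-defensin gene with 0 reads in MFN2 WT and 11 to 68 in MFN2 cKO, and Klf1, an erythroid transcription factor gene with 9 to 12 reads in MFN2 WT and 78 to 114 in MFN2 cKO. As the criterion chose them for this difference, the values are a description. No other clustered histone gene met it.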
